A study of Mus musculus with 6 samples.

Results

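The chemokine genes Cx3cl1, Ccl2, Ccl5, Ccl7 and Cxcl12 were examined in a pre-osteoblastic cell line. They were taken by name from an expression table of 15796 genes, and all 5 were found in it. The cells were MC3T3-E1, a mouse line of pre-osteoblasts (committed precursors of bone-forming cells). In 3 libraries the cells carried a plasmid with Hsd11b1 (overexpression 1 to 3), and in 3 libraries they carried an EGFP plasmid and are labelled WT (control 1 to 3). The cells of all 6 libraries, controls included, had been incubated with 11-DHC (11-dehydrocorticosterone), an inactive steroid that the enzyme 11β-HSD1, the product of Hsd11b1, converts to the active glucocorticoid corticosterone. No library without 11-DHC is part of the comparison, a single line was used, and whether replicates came from separate cultures is not in the labels. The p-values therefore reflect just how far these samples spread. The comparison asks what a gain of 11β-HSD1 does to osteoblastic cells given 11-DHC, and here what it does to their chemokine transcripts.

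Chemokines are small secreted proteins that direct the migration of leukocytes and stem cells through G protein-coupled receptors, and they are named by the spacing of their first conserved cysteines (CC, CXC, CX3C). Many are induced by NF-kB and interferon signalling, and many are restrained by glucocorticoids acting through the glucocorticoid receptor. In bone, Ccl2 and Ccl7 attract monocytes, the precursors of osteoclasts, through Ccr2 and other receptors. Cxcl12 holds hematopoietic stem cells in the marrow through Cxcr4, Ccl5 attracts T cells and monocytes, and Cx3cl1 (fractalkine) is a membrane-anchored chemokine that binds Cx3cr1 on osteoclast precursors and is shed by Adam10 and Adam17.

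The promoters of Cx3cl1 and Cxcl12 are shown because these 2 of the 5 genes had an entry in the promoter table. They come from RefSeq on GRCm38.p6, run from 250 bases before to 50 bases after the RefSeq start, and both lie on the plus strand. For Cxcl12 the RefSeq start is also the GENCODE gene start, while for Cx3cl1 it lies 171 bases downstream of the GENCODE gene start, which falls inside the window. Capitals mark the letters TATAAA, and GGGCGG or its reverse CCGCCC, the GC box.
Cx3cl1, chr8:94771930-94772229: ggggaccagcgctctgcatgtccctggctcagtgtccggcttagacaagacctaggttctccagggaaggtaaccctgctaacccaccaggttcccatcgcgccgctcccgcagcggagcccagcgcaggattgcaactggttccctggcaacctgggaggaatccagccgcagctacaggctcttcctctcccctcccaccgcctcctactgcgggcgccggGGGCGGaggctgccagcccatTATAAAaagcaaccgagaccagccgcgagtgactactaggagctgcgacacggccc
Cxcl12, chr6:117168285-117168584: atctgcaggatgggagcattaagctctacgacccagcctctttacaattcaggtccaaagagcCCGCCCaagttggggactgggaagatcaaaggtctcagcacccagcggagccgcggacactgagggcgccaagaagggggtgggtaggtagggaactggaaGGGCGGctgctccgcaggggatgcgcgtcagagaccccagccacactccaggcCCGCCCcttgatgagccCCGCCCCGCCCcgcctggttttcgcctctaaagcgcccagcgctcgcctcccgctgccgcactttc

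Both windows are GC-rich, each with 64.7% G and C against a median of 52.7% over 32851 promoters of the same length. The Cx3cl1 window holds TATAAA once, a sequence present on either strand in 13.6% of all promoters, and the Cxcl12 window does not hold it. This match begins 6 bases before the RefSeq start and 165 bases after the GENCODE start, so at neither start does it lie where a TATA box usually does. The GC box occurs once in Cx3cl1 and 5 times in Cxcl12, where the last 2 matches overlap by 1 base, and 35.7% of all promoters hold at least 1. Neither window contains the NF-kB consensus, which is 10 bases long (in 4.79% of promoters), the AP-1 sequence TGANTCA (7.81%) or the STAT sequence TTCNNNGAA (8.30%) on either strand. The glucocorticoid receptor palindrome, made of AGAACA, any 3 bases and TGTTCT, is absent from both and present in 0.00913% of promoters, and a single arm of it, AGAACA, is absent from both and present in 19.0%. These are matches of letters in short windows, not measured binding sites.

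The authors deposited FPKM, the fragments counted for a gene per unit of exon length and of sequencing depth, for every library. Read totals recovered from them ran from 18290813 to 58665306 in overexpression libraries and from 16264232 to 34948128 in controls. Overexpression 3 and control 2, the deepest of their groups, lie on the same side of the second principal component (-10.4 and -11.8), which holds 19.5% of the variance. Control 3, the library with the fewest reads, is also on that side (-2.3), so the component does not simply follow depth. Hsd11b1 itself averaged 328 ± 15 FPKM in overexpression libraries and 0.860 ± 0.903 FPKM in controls (SD, n = 3 each). Genes were tested with limma on log2(FPKM + 1), and among the 13120 genes whose FPKM averaged 1 or more the adjusted p was under 0.05 for 6.22% in the higher direction and 5.84% in the lower direction. All 5 chemokine genes passed that filter in both groups.

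The 5 genes did not move together. Cx3cl1 and Ccl2 fell with Hsd11b1 overexpression, Ccl5 and Cxcl12 rose, and Ccl7 did not pass the threshold. Thus 2 members were lower and 2 higher at an adjusted p under 0.05, against 12.1% of all genes called in either direction. For 4 of the 5 members the 3 overexpression values and the 3 control values did not overlap, which was true of 30.8% of all tested genes. Each of these 4 genes had p = 0.1 in a two-sided exact permutation test over 20 assignments, a floor set by 3 libraries a group. By the adjusted p of the authors' deposited table, 3 members (Cx3cl1, Ccl5 and Cxcl12) are under 0.05, against 13.1% of all its genes. The 5 genes were chosen with earlier results of these data known, so their counts cannot be tested against these shares.

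**Figure D1:**
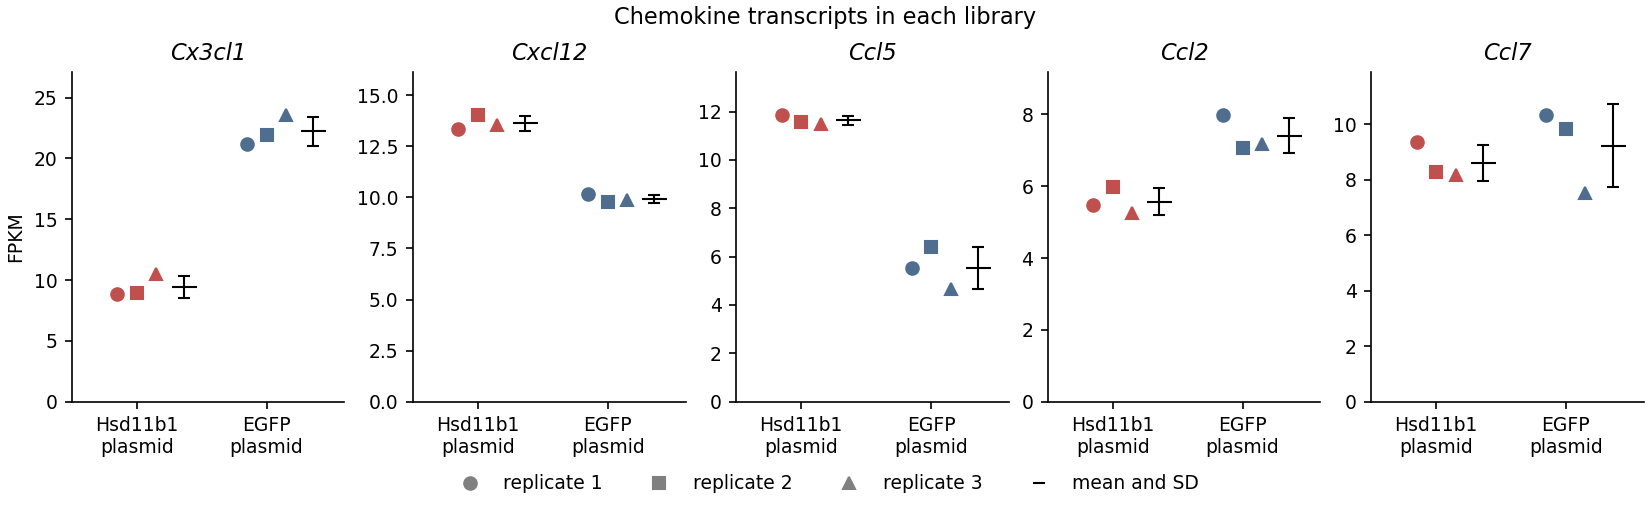
FPKM of each chemokine gene (vertical axis, from 0) in the 3 libraries with the Hsd11b1 plasmid (red) and the 3 with the EGFP plasmid (blue), with the mean and SD in black. The groups are apart for Cx3cl1, Cxcl12, Ccl5 and Ccl2 and overlap for Ccl7, whose lowest control (7.52) lies below all 3 overexpression libraries.

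Cx3cl1 (ENSMUSG00000031778, chromosome 8, 94772009 to 94782427, GRCm38, plus strand) showed the largest change of the 5. It had 8.88, 8.89 and 10.5 FPKM in overexpression 1 to 3, against 21.2, 22.0 and 23.5 FPKM in control 1 to 3. Every overexpression library was below every control, and the gap between overexpression 3 and control 1 was wider than the range within either group. The mean was 0.424 of that in controls (9.42 ± 0.926 and 22.2 ± 1.22 FPKM, SD, n = 3 each). The log2 difference was -1.16 (SE 0.08, 95% interval -1.34 to -0.97, limma adjusted p = 9.23e-05). By p it ranked 3 among the genes with a negative difference. These values rest on 638, 652 and 2418 recovered reads in overexpression libraries and 1657, 3015 and 1505 in controls. In overexpression libraries the gene stood at the 64.8th percentile of all listed genes by FPKM, and in controls at the 84.9th. In the authors' deposited table its log2 fold change is -1.23 (adjusted p = 2.36e-34), and the gene is among their 2-fold changes.

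Ccl5, also known as RANTES (ENSMUSG00000035042, chromosome 11, 83525778 to 83530518, minus strand), changed most in the other direction. It had 11.8, 11.6 and 11.5 FPKM in overexpression 1 to 3, against 5.54, 6.41 and 4.68 FPKM in control 1 to 3. The overexpression libraries lay close to each other, with a coefficient of variation of 1.63%, while the controls varied by 15.6%. Reads were fewest in control 3, where 73 were counted, and the other libraries held 106 to 647. Counting errors were 6.9%, 7.0% and 3.9% in overexpression 1 to 3, all above 1.63%, and 9.7%, 6.8% and 11.7% in control 1 to 3. The groups therefore cannot be said to differ in spread. The mean was 2.1 times that in controls (11.6 ± 0.189 and 5.54 ± 0.866 FPKM, SD, n = 3 each), with a log2 difference of 0.96 (SE 0.10, 95% interval 0.74 to 1.18, limma adjusted p = 0.000547). Like Cx3cl1 it is among the 2-fold changes of the authors' deposited table, with a log2 fold change of 1.05 (adjusted p = 2.67e-08).

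Cxcl12, or SDF-1 (ENSMUSG00000061353, chromosome 6, 117168535 to 117181367, plus strand), rose by a smaller amount. It had 13.3, 14.0 and 13.5 FPKM in overexpression 1 to 3, against 10.1, 9.75 and 9.85 FPKM in control 1 to 3. The 2 groups were each tight, with coefficients of variation of 2.61% in overexpression libraries and 2.06% in controls, and the gap between them was wider than either range. The means were 13.6 ± 0.355 and 9.91 ± 0.204 FPKM (SD, n = 3 each), a ratio of 1.37. The log2 difference was 0.42 (SE 0.06, 95% interval 0.28 to 0.56, limma adjusted p = 0.00279). Its log2 fold change in the authors' deposited table is 0.459 (adjusted p = 6.65e-08). Cxcl12 had the most reads per library of the 5 genes in overexpression, 1993 to 6488, over an exon length of 8176 bases. Its 4 annotated transcripts were counted together.

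Ccl2, or MCP-1 (ENSMUSG00000035385, chromosome 11, 82035571 to 82037453, plus strand), fell by a smaller amount than Cx3cl1. It had 5.48, 5.98 and 5.26 FPKM in overexpression 1 to 3, against 7.98, 7.07 and 7.19 FPKM in control 1 to 3. No value overlapped, but the gap between overexpression 2 and control 2 was only slightly wider than the range within a group. The means were 5.57 ± 0.372 and 7.41 ± 0.497 FPKM (SD, n = 3 each), a ratio of 0.752, and the log2 difference was -0.36 (SE 0.08, 95% interval -0.53 to -0.18, limma adjusted p = 0.0182). The call ended without overexpression 1 (adjusted p = 0.0708), overexpression 3 (0.0552), control 1 (0.0504) or control 3 (0.0514), and without the deepest library of each group (0.0697). It misses the same threshold in the authors' deposited table (log2 fold change -0.417, adjusted p = 0.0873). Read counts were 114, 127 and 351 in overexpression 1 to 3 and 181, 281 and 133 in control 1 to 3. Counting errors per library were thus 5.3% to 9.4% in overexpression and 6.0% to 8.7% in controls, about as large as the coefficients of variation between libraries (6.67% and 6.70%).

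Ccl7, or MCP-3 (ENSMUSG00000035373, chromosome 11, 82045712 to 82047525, plus strand), starts 10.1 kb downstream of the start of Ccl2. It had 9.35, 8.30 and 8.17 FPKM in overexpression 1 to 3, against 10.3, 9.82 and 7.52 FPKM in control 1 to 3. The groups overlapped, since control 3 was the lowest library of all and control 1 the highest. The means were 8.61 ± 0.647 and 9.23 ± 1.5 FPKM (SD, n = 3 each), with a log2 difference of -0.08 (SE 0.11, 95% interval -0.34 to 0.18, limma adjusted p = 0.718) and an exact permutation p = 0.6. The interval reaches almost to the estimate for Ccl2, so the data do not show that Ccl7 stayed level. Its log2 fold change in the authors' deposited table is -0.116 (adjusted p = 0.804).

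**Figure D2:**
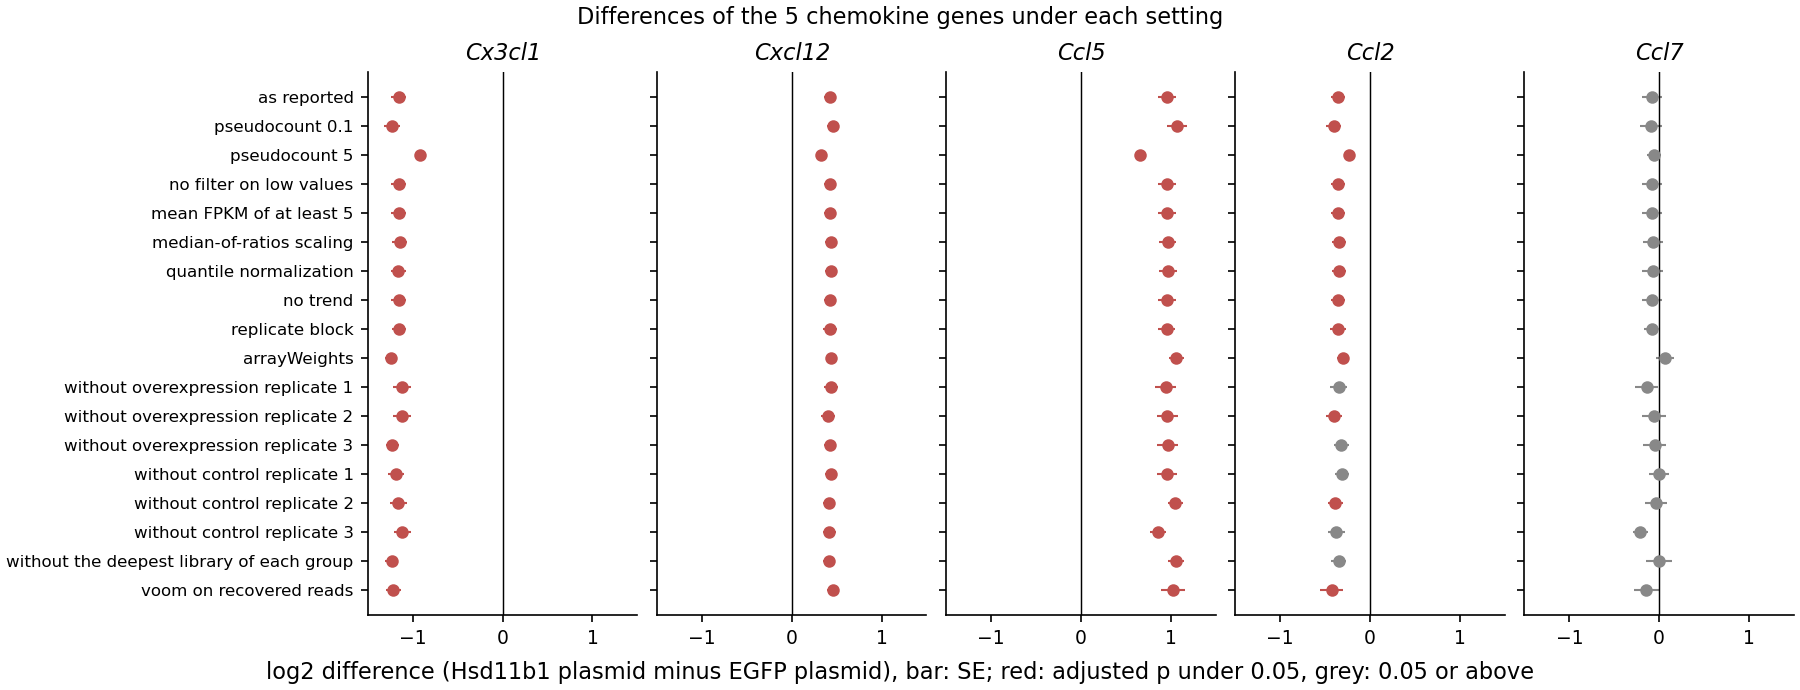
Log2 difference (Hsd11b1 plasmid minus EGFP plasmid, with SE bars) of each gene under the reported setting and 17 alternatives, red where the adjusted p was under 0.05 and grey where it was not. Cx3cl1, Cxcl12 and Ccl5 are red in every row, Ccl2 turns grey in 5 rows, and Ccl7 is grey throughout and lies on both sides of 0.

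The order of the transcript levels differed between the groups. FPKM is scaled by the length of all annotated exons of a gene. Levels of different genes can be set side by side only roughly, since which transcripts of a gene were used was not measured. In overexpression libraries the order by mean FPKM was Cxcl12 (13.6), Ccl5 (11.6), Cx3cl1 (9.42), Ccl7 (8.61) and Ccl2 (5.57). Cxcl12 led and Ccl5 came next in all 3 of these libraries, while Cx3cl1 and Ccl7 changed places in overexpression 1 and did not differ beyond their spread. In controls the order was Cx3cl1 (22.2), Cxcl12 (9.91), Ccl7 (9.23), Ccl2 (7.41) and Ccl5 (5.54). Cx3cl1 led in all 3 controls and Ccl5 was last in all 3, whereas Ccl7 was above Cxcl12 in control 1 and control 2 and below it in control 3.

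**Figure D3:**
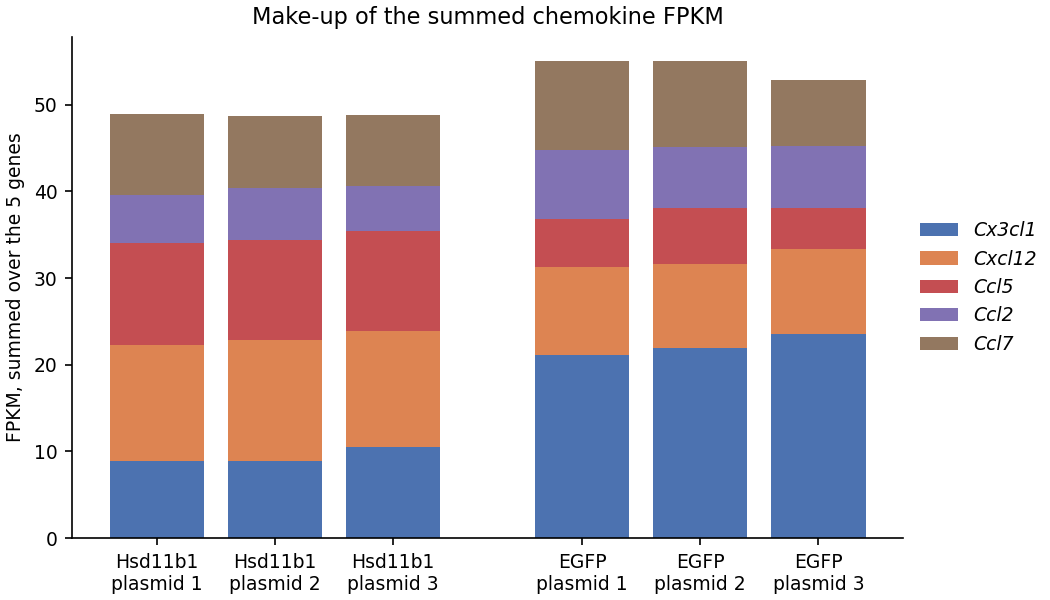
FPKM summed over the 5 chemokine genes (vertical axis) in each library, split by gene, with the Hsd11b1 plasmid on the left and the EGFP plasmid on the right. The Cx3cl1 block (bottom) takes 18.2% to 21.4% of the sum on the left and 38.4% to 44.6% on the right.

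Summed over the 5 genes, the FPKM was 48.9 ± 0.0942 in overexpression libraries and 54.3 ± 1.33 in controls (SD, n = 3 each). The sum in every overexpression library was below that in every control. This was not a joint fall: Cx3cl1 went from 22.2 FPKM in controls to 9.42 FPKM with overexpression, and Ccl2 from 7.41 to 5.57 FPKM. Ccl5 rose from 5.54 to 11.6 FPKM and Cxcl12 from 9.91 to 13.6 FPKM. Single genes were apart in 30.8% of all tested genes, and the share for sums of other genes was not computed. Over all 12 listed ligand genes the sums overlapped, with 63.1, 63.1 and 62.0 FPKM in overexpression 1 to 3, against 66.9, 65.3 and 61.5 FPKM in control 1 to 3. Of the sum over the 5 genes alone, Cx3cl1 made up 19.3% ± 1.87 in overexpression libraries and 41.0% ± 3.26 in controls. Ccl5 made up 23.8% ± 0.389 and 10.2% ± 1.40 of that sum, and Cxcl12 27.9% ± 0.773 and 18.3% ± 0.482. The share of Ccl7 in the sum over the 5 genes was 17.6% ± 1.32 in overexpression libraries and 17.0% ± 2.38 in controls. Ratios between genes of the same library do not depend on the library total. Of the 10 pairs of these genes, 9 had ratios that did not overlap between the groups, against 33.2% of all pairs of tested genes with no value of 0. Since 4 of the 5 genes were themselves apart and moved in opposite directions, the count adds little to the values of the single genes. Each of the 9 had an exact permutation p = 0.1, the smallest possible, or 0.111 adjusted over the 10 pairs, so no pair could pass. The widest was Cx3cl1 to Ccl5, with ratios of 0.749, 0.769 and 0.913 in overexpression 1 to 3, against 3.82, 3.43 and 5.04 in control 1 to 3. The ratio of the neighbouring pair Ccl2 and Ccl7 overlapped between the groups. It was 0.586, 0.721 and 0.643 in overexpression 1 to 3 and 0.772, 0.719 and 0.955 in control 1 to 3 (exact permutation p = 0.2).

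Among 38 chemokine ligand genes, 12 were listed in the table and 7 were tested, of which 3 rose, 2 fell and 2 did not pass. These 7 include the 5 genes above, so the count largely repeats theirs, and the only others tested were Cxcl10 and Ccl25. Over all tested genes 12.1% were called in either direction, and the count of every later list stands beside that share. Their median log2 difference was 0.06, against -0.01 over all tested genes. Outside the 5 genes, Cxcl10, an interferon-induced ligand of Cxcr3, averaged 9.63 ± 0.591 FPKM in overexpression libraries and 6.57 ± 1.27 FPKM in controls (SD, n = 3 each), a log2 difference of 0.50 (SE 0.12, limma adjusted p = 0.0265). Its call ended without overexpression 1, overexpression 2, control 2 or control 3 (adjusted p up to 0.0963), and without the deepest library of each group (0.113). Ccl25 had 2.13 FPKM in overexpression libraries and 2.01 FPKM in controls (adjusted p = 0.701). Ccl9, Ccl27a, Ccl28, Cxcl9 and Cxcl11 had a mean FPKM under 1, so they were not tested.

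Receptors for these chemokines were hardly seen. Of 23 receptor genes, 5 were listed and 3 tested, and none passed in limma (0 of 3 at the adjusted threshold, 0 at an unadjusted p under 0.05 and 0 by voom). Ackr3, the atypical receptor that takes up Cxcl12, had 6.36 ± 0.307 FPKM in overexpression libraries and 6.77 ± 0.736 FPKM in controls (SD, n = 3 each, adjusted p = 0.650). Ackr4, which scavenges several CC chemokines, had 1.26 and 1.18 FPKM (adjusted p = 0.750), and Ccr10 had 1.7 and 1.42 FPKM (adjusted p = 0.271). Ccr2, Cxcr4 and Cx3cr1, the receptors named above, were not among the listed genes.

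**Figure D4:**
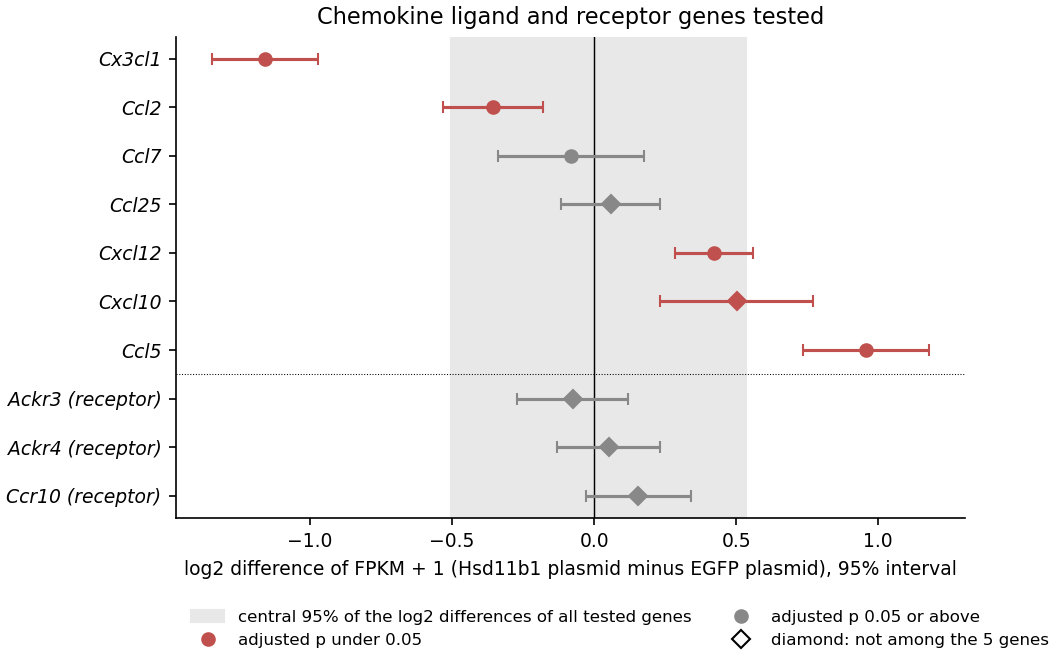
Log2 difference with its 95% interval (horizontal axis, Hsd11b1 plasmid minus EGFP plasmid) of the 7 ligand and 3 receptor genes tested, with circles for the 5 genes described and diamonds for the others, red at an adjusted p under 0.05. The grey band holds the central 95% of all tested genes, from -0.50 to 0.54, and Cx3cl1 and Ccl5 lie outside it.

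Genes that release, cut or hold chemokines at the cell surface mostly did not pass. Of 20 such genes 18 were tested, 2 rose and 1 fell, and their median log2 difference was -0.02. The sheddases of Cx3cl1 did not pass. Adam10 had 34.2 FPKM in overexpression libraries and 34.6 FPKM in controls (95% interval of the log2 difference -0.22 to 0.19, adjusted p = 0.934), and Adam17 had 8.42 and 8.40 FPKM (-0.17 to 0.18, adjusted p = 0.992). Mmp13, a collagenase that can also cleave chemokines, rose to 8.72 ± 0.878 FPKM, against 4.62 ± 0.198 FPKM in controls (SD, n = 3 each, limma adjusted p = 0.000649). Syndecans are cell surface proteoglycans whose heparan sulfate binds chemokines, and Sdc4 rose by 0.41 on the log2 scale (adjusted p = 0.00670) while Sdc3 fell by 0.43 (adjusted p = 0.00944). Mmp2, an enzyme that inactivates Cxcl12, was the most abundant of the list with 283 FPKM in overexpression libraries and 253 FPKM in controls (adjusted p = 0.190), followed by Mmp14 with 122 and 105 FPKM (adjusted p = 0.1).

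Transcription factors that act on chemokine genes numbered 17, of which 16 were tested, 4 rose, 1 fell and 11 did not pass (median 0.04). The NF-kB subunit genes Rela, Relb, Rel, Nfkb1 and Nfkb2 were all among those that did not pass. Rela had 33.3 and 33.9 FPKM in overexpression libraries and controls (adjusted p = 0.931), and Nfkb2, the most abundant factor by mean over all 6 libraries, had 45.8 and 46.4 FPKM (adjusted p = 0.920). The C/EBP genes rose: Cebpd averaged 9.63 ± 1.41 FPKM in overexpression libraries and 3.85 ± 0.381 FPKM in controls (adjusted p = 0.000382), and Cebpb 39.1 ± 5.89 and 18.4 ± 3.56 FPKM (adjusted p = 0.00251; SD, n = 3 each, limma). Irf7, an interferon regulatory factor, and Hif1a, the hypoxia factor that induces Cxcl12, rose narrowly past the threshold, Irf7 to 38.9 FPKM, against 30.7 FPKM in controls (adjusted p = 0.0493), and Hif1a to 32.7 FPKM, against 24.5 FPKM in controls (adjusted p = 0.0453). Nr3c1, which encodes the glucocorticoid receptor, fell by 0.33 on the log2 scale (adjusted p = 0.0316). Irf7 and Nr3c1 lost their calls with any library left out but control 2, and Hif1a with any but overexpression 3 (adjusted p up to 0.175 for Irf7, 0.11 for Nr3c1 and 0.158 for Hif1a). Irf7 and Hif1a also lost theirs with no filter and with no trend, Irf7 with a pseudocount of 0.1 and Hif1a with quantile scaling.

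Of 12 NF-kB kinase and inhibitor genes tested, 2 inhibitors rose, 0 genes fell (0 at an unadjusted p under 0.05 and 0 by voom) and 10 did not pass in limma, with a median log2 difference of 0.09. Tnfaip3, which encodes the ubiquitin-editing inhibitor A20, had 8.62 ± 0.169 FPKM in overexpression libraries and 5.30 ± 0.524 FPKM in controls (limma adjusted p = 0.00154). Nfkbia, which encodes the inhibitor IκBα, had 30.7 ± 1.80 and 20.1 ± 2.95 FPKM (adjusted p = 0.00771; SD, n = 3 each). Both are also direct targets of NF-kB and of the glucocorticoid receptor. The kinase genes Ikbkb (3.05 and 3.03 FPKM) and Chuk (14.9 and 15.2 FPKM) had adjusted p = 0.962 and 0.892.

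A list of 9 genes linked to glucocorticoids held inhibitors of inflammatory signalling and mRNAs (Dusp1, Tsc22d3 and the Zfp36 family) and general targets of the glucocorticoid receptor (Fkbp5, Sgk1, Per1 and Klf9). In limma 7 rose, 1 fell and 1 missed the threshold, with a median log2 difference of 0.77. The direction of the list was known from earlier results of these data. Dusp1, a phosphatase that switches off p38 and JNK signalling, rose to 13.2 ± 0.820 FPKM, against 4.13 ± 0.424 FPKM in controls (limma adjusted p = 2.84e-05). Zfp36, which encodes tristetraprolin, a protein that destabilizes AU-rich mRNAs including that of Ccl2, rose to 12.4 ± 0.474 FPKM, against 7.26 ± 0.879 FPKM in controls (adjusted p = 0.00150; SD, n = 3 each). Its relative Zfp36l1 did not pass (24.5 and 25.0 FPKM, adjusted p = 0.842). Zfp36l2 fell by 0.28 (adjusted p = 0.0308), and lost its call with any library left out but overexpression 3 (adjusted p up to 0.134). Fkbp5, Tsc22d3, Sgk1, Per1 and Klf9 were the other 5 that rose, by 2.14, 1.88, 1.64, 0.77 and 0.41 on the log2 scale.

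None of the tested neighbours of Cx3cl1 and Ccl5 passed. Over all tested genes 12.1% were called, so a count of 0 among so few neighbours says little about either locus. Within 250 kb of the start of Cx3cl1, 10 genes were tested and 0 passed in limma in either direction (1 at an unadjusted p under 0.05, 0 by voom on recovered reads). Their log2 differences ran from -0.16 (Cpne2, unadjusted p = 0.0402) to 0.18 (Coq9, unadjusted p = 0.0534), against -1.16 for Cx3cl1. Around Ccl5, 7 genes were tested and 0 passed in limma or voom, with differences from -0.38 for the noncoding gene AA465934 (SE 0.24) to 0.20 for Mmp28 (adjusted p = 0.0846, the only one with an unadjusted p under 0.05, 0.0133). Ccl22 and Ccl17 on either side of Cx3cl1, and Ccl11, Ccl12 and Ccl8 beyond Ccl7, were not among the listed genes, and Ccl9, at -48.1 kb (upstream) of Ccl5, had a mean FPKM under 1. Ccl2 and Ccl7 were the only tested genes within 250 kb of each other's start, and around Cxcl12 0 genes were tested.

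**Figure D5:**
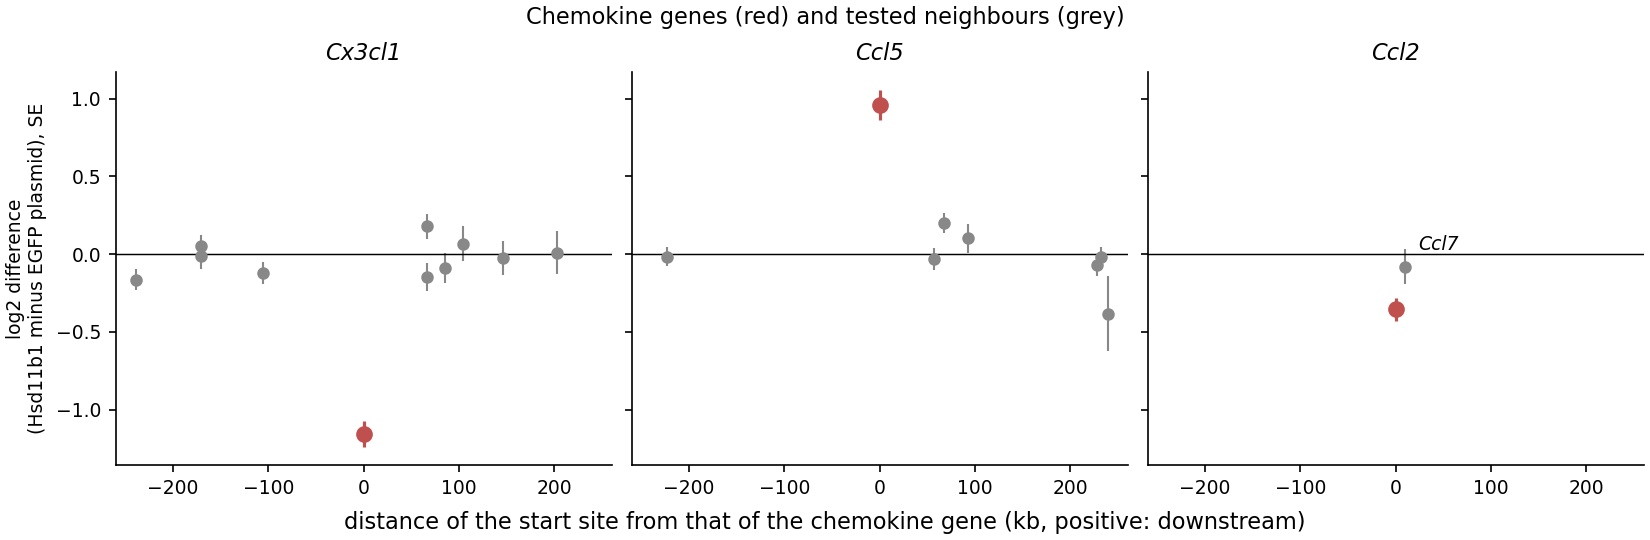
Log2 difference with its SE (vertical axis, Hsd11b1 plasmid minus EGFP plasmid) against the distance of the start site in kb, for Cx3cl1, Ccl5 and Ccl2 (red, at 0) and their tested neighbours within 250 kb (grey). The neighbours of Cx3cl1 lie between -0.16 and 0.18, and Ccl7 is the single point beside Ccl2.

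Little sequence was shared with other genes. Of the 31-base words in the transcripts of Cx3cl1, Ccl2 and Ccl7, 0 occurred in transcripts of another gene, and of those of Ccl5 and Cxcl12, 0.539% and 0.11%. Gm17268, annotated on the minus strand, overlaps Ccl2, which is on the plus strand. The strand setting of the counting is not given in the sources used here, so reads of this overlap cannot be told apart.

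Genes with a profile most like each member were sought among all tested genes, without predicted genes and pseudogenes, by the root-mean-square distance of log2(FPKM + 1) over the 6 libraries after centring. Nearest to Cx3cl1 were Spon2, a matrix protein gene (distance 0.138), Grem1, a BMP antagonist (0.148), Klhdc8a (0.151), Etv5, an ETS transcription factor (0.152), and Egr2, an immediate early factor (0.163), all lower with overexpression. Over all tested genes, here with predicted genes and pseudogenes counted, 0 lay within a distance of 0.1 of Cx3cl1. The counts were 7 for Ccl5, 292 for Ccl7, 411 for Cxcl12 and 595 for Ccl2. Distances were not scaled to the size of a gene's difference. Nearest to Ccl5 were Lpin3 (0.0533), Snora17 (0.0642) and Kyat1 (0.0871), and nearest to Cxcl12 were Trim26 (0.0224), Cdyl2 (0.0244) and Xdh (0.0262). Nearest to Ccl2 were Ccdc18 (0.00911), Sparcl1 (0.0278) and Vcam1 (0.0295), the last an adhesion molecule for leukocytes. Nearest to Ccl7 were AC148328.2 (0.0417), Poc5 (0.0469) and Ndufaf5 (0.0491).

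Markers of other cells were checked, since leukocytes and endothelium also make these chemokines and, in bulk RNA, fewer cells of a type and less RNA per cell cannot be told apart. Of 9 macrophage markers 4 were listed (Cd68, Csf1r, Lyz2 and Cd14), none passed (0 in limma, 0 at an unadjusted p under 0.05, 0 of the 2 that voom could test), and their summed FPKM ran from 17.4 to 18.3 in overexpression libraries and from 18.2 to 20.1 in controls. Ptprc, Adgre1, Itgam and Aif1, which define leukocytes and macrophages, were not listed. Of 6 endothelial markers 2 were listed, Pecam1 and Tek, both with a mean FPKM under 1, and of 5 T cell markers 0 were listed. Of 4 adipocyte markers only Fabp4 was listed, at 1.28 ± 0.128 FPKM in overexpression libraries and 0.132 ± 0.0297 FPKM in controls (SD, n = 3 each), and its part in the chemokine values was not tested. Of 8 osteoblast lineage markers 6 were listed and tested, of which 2 rose, 0 fell (0 by voom, 1 at an unadjusted p under 0.05) and 4 did not pass in limma. Runx2, the master transcription factor of the lineage, rose by 0.25 on the log2 scale (adjusted p = 0.0442) and Sparc, which encodes the matrix protein osteonectin, by 0.33 (adjusted p = 0.0383). The call of Runx2 ended whichever library was left out (adjusted p up to 0.168), with no trend, and without the deepest library of each group. That of Sparc ended without overexpression 1, overexpression 2, control 1 or control 3 (up to 0.176), and with no filter. Both calls also ended with a replicate block. The sum of the 6 was 2980 to 3090 FPKM in overexpression libraries and 3060 to 3380 FPKM in controls, while Alpl and Bglap were not listed.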

How the data were processed

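RNA of 3 overexpression and 3 control libraries of MC3T3-E1 was sequenced from total RNA isolated with TRIzol and a stranded mRNA kit, per the labels' protocols. Trimming, alignment and counting tools (cutadapt 2.5, HISAT2 2.1.0, featureCounts 1.6.3) and the build mm10, which is GRCm38, come from the submitters' processing notes. Not given in the sources used here: annotation release, strand setting, and the tool behind the authors' test. For 15796 genes the authors deposited FPKM per library beside their log2 fold change and raw and adjusted p-values, per the file headers, and a second table of 2-fold changes.

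FPKM were tested with limma 3.58.1 in R 4.3.3 (lmFit, eBayes with a trend) on log2(FPKM + 1), with no covariate, for the 13120 genes whose FPKM averaged 1 or more. Adding 1 makes the differences of low genes smaller. P-values are two-sided and Benjamini-Hochberg adjusted over all tested genes, and the threshold is 0.05. Differences are overexpression minus control. The tests were also run on simulated reads. These had the same fixed spread setting for all genes, so that run does not give the error rate of the calls here.

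Reads were recovered as FPKM times exon length (GENCODE M21, 15776 genes) times the library total that made the products whole. Per library, 93.7% to 94.9% of values up to 1000 reads were whole within 0.05 reads, and 14388 genes (91.2%) were whole in all 6 libraries, within 0.05 reads or, above 1000 reads, 0.2 reads. Counting errors cover counting alone.

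The members and the 8 pathway and 5 marker lists were chosen with earlier results of these data known. Named genes are the 5 members, Hsd11b1, up to 6 called genes of each list by p, the 2 most abundant of each list, and the nearest profiles (5 for Cx3cl1, 3 for the others). Klf9, Ccl25, Ackr4, Adam10, Adam17, Rela, Ikbkb, Chuk, Zfp36l1 and other genes named that did not pass, and neighbouring genes, were added after their values were seen. Alternatives were other pseudocounts (0.1 and 5), other filters (none, or an average FPKM of 5), median-of-ratios and quantile scaling, no trend, a replicate block, arrayWeights, each library left out, the deepest library of each group left out, and voom on recovered reads.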

Additional observations from a re-analysis of the deposited data

How the results depend on the processing

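Cx3cl1, Ccl5 and Cxcl12 kept their direction and their call in all 17 alternatives, with log2 differences of -1.25 to -0.92, 0.66 to 1.07 and 0.32 to 0.46. Ccl2 kept its direction (-0.43 to -0.23) and lost its call in 5. It ran from -0.40 to -0.31 with 1 library left out (adjusted p 0.0327 to 0.0708) and was -0.35 (adjusted p = 0.0697) without the deepest library of each group. The number of lower members was thus 1 to 2 with 1 library left out and 1 without the deepest 2. Ccl7 passed in none of the 17 and turned to 0.0655 with arrayWeights (adjusted p = 0.700). The cause was not tested. Over all genes, arrayWeights gave 1403 lower and 1357 higher calls. Leaving out 1 library gave 415 to 613 lower and 479 to 720 higher, and leaving out the deepest 2 gave 474 lower, all with fewer samples. No scaling moved the median of all genes by more than 0.1 on the log2 scale. With a replicate block, the log2 differences were -1.16, -0.36, 0.96, -0.08 and 0.42 for Cx3cl1, Ccl2, Ccl5, Ccl7 and Cxcl12, and no member changed its call. Of the listed genes called, Hif1a, Nr3c1, Zfp36l2, Runx2 and Sparc lost their calls under the block. Deviations of same-numbered libraries correlated at 0.209, -0.294 and -0.0269 across genes, and those of differently numbered libraries at -0.358 to 0.418. With 3 libraries a group, these values cannot tell whether same-numbered samples belong together. Depth limits Ccl2, Ccl5 and Ccl7 most, with as few as 114, 73 and 98 reads in a library.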

Other observations

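Receptors through which inflammatory signals reach chemokine genes were measured in the same libraries. Of 17 tested, 4 rose, 1 fell and 12 did not pass in limma, with a median log2 difference of 0.04. Il1rl1, which encodes the interleukin 33 receptor ST2, averaged 58.7 ± 4.86 FPKM in overexpression libraries and 22.3 ± 2.63 FPKM in controls (adjusted p = 9.71e-05). Pdgfra, a growth factor receptor of mesenchymal cells, had 66.4 ± 1.91 and 32.3 ± 1.53 FPKM (adjusted p = 4.92e-05), and Il6ra, the interleukin 6 receptor, 3.89 ± 0.252 and 2.08 ± 0.108 FPKM (adjusted p = 0.00101; SD, n = 3 each). Myd88, the adaptor of Toll-like and interleukin 1 receptors, rose by 0.35 on the log2 scale (adjusted p = 0.0282) and lost its call without overexpression 2, overexpression 3, control 1 or control 3 (adjusted p up to 0.106). Ifngr2, a subunit of the interferon gamma receptor, fell by 0.32 (adjusted p = 0.0171) and lost its call without overexpression 1 or overexpression 2 (up to 0.0727), and without the deepest library of each group (0.0845). The most abundant, Tnfrsf1a and Pdgfrb, had 68.4 and 61.5 FPKM in overexpression libraries and 67.3 and 59.2 FPKM in controls, and neither passed (adjusted p = 0.893 and 0.691).

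Other secreted cytokines and adhesion genes numbered 9 tested of 19, of which 0 rose, 2 fell and 7 did not pass in limma (median 0.07). In the higher direction 3 had an unadjusted p under 0.05, and voom on recovered reads called 2 higher. Tnfrsf11b, which encodes the RANKL decoy osteoprotegerin, fell by 0.59 on the log2 scale (adjusted p = 0.00266). Vcam1 fell to 23.1 ± 1.44 FPKM, against 29.3 ± 2.21 FPKM in controls (SD, n = 3 each, adjusted p = 0.0270), and lost its call with any library left out but control 2 (up to 0.077), and without the deepest library of each group (0.0892). Csf1, the macrophage growth factor, had 105 ± 7.09 FPKM in overexpression libraries and 92.7 ± 2.91 FPKM in controls (adjusted p = 0.156). Mif, the most abundant, had 284 ± 30.1 and 272 ± 47.3 FPKM (adjusted p = 0.812).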
